A study of Mus musculus with 6 samples.

Results

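The 7 genes described here, Hmgcs1, Idi1, Fdft1, Sqle, Cyp51, Msmo1 and Insig1, belong to the pathway by which cells make cholesterol. They were listed by name, with no threshold on a measured value, though with earlier results of these data known, and are 7 of the 18560 genes in the count table. Of these, 6 encode enzymes of synthesis and Insig1 encodes a regulator. No gene of cholesterol uptake is among them, and uptake genes appear below only as part of a separate list.

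The study profiled single cells of the mouse olfactory bulb with a 3′ droplet method that counts unique molecular identifiers (UMIs), tags that mark each captured transcript. Mice were C57BL/6NJ, 14 weeks of age, male and female, and wild-type. There were 6 libraries, 2 from bulbs deprived by naris occlusion (a plug in 1 nostril), 2 from mice trained to tell odors apart for a water reward, and 2 controls. Occlusion and training each lasted 6 weeks. The methods give water deprivation only for the trained mice, and its part cannot be told apart from that of training. The control bulbs are described both as those of naive mice and as the open side of occluded mice. In the second case control and occluded libraries would share mice. The tests below took them as separate, and a fit with the replicate number as a block is given among the alternatives.

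The deposited annotation placed 51426 cells in 38 clusters, and a second annotation placed 21746 neurons in 18 clusters. The libraries held 6705 to 10570 cells and 11841160 to 17065083 UMIs. Trained library 1 had the shallowest cells, at a median depth of 1028 UMIs and a mitochondrial share of 14.4%, against 1344.5 to 1723.5 UMIs and 9.2% to 11.6% in the other 5. Of the cell barcode sequences, 1461 occurred in more than 1 library, in 2956 cells. Xist counts were 20000 to 27904 UMIs in the second library of each group and 0 to 5 in the first, so replicate number and the sex of the mice cannot be told apart. Each group held only 2 libraries, each a batch of pooled mice, so the p-values measure the spread between these pools, male and female, and not between mice.

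In cells, acetyl groups are joined into mevalonate, turned into isoprenoid units, condensed to squalene, and closed and trimmed into sterols. When membrane sterol is low, the factor SREBP-2 moves to the nucleus and switches on the whole set of enzymes together, while INSIG proteins hold it back in the endoplasmic reticulum when sterol is plentiful. The brain makes nearly all of its own cholesterol because plasma lipoproteins do not cross the blood-brain barrier, and myelinating and other glia are known as large producers.

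The stretches just upstream of the members' start sites are shown because the genes are known to be switched on together from there. RefSeq (GRCm38.p6, the build of the mm10 files) gave a promoter entry for 5 of the 7 members. The 250 bases before each start site follow, 5′ to 3′ on the gene's strand, with capitals marking matches on either strand to 3 motifs: TCACNCCAC, a sterol regulatory element, CCAAT, and GGGCGG, a GC box.
Hmgcs1, chr13:119690101-119690350, forward strand: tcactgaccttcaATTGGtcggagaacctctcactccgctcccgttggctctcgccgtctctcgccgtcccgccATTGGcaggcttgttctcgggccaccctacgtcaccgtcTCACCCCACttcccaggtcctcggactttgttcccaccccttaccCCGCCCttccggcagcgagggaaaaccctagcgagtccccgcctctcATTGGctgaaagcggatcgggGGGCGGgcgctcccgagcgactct
Idi1, chr13:8885356-8885605, forward strand: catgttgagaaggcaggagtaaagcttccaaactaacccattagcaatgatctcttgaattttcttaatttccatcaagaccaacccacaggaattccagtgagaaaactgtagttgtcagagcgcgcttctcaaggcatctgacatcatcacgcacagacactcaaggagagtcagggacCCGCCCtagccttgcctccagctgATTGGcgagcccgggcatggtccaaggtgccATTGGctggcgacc
Cyp51, chr5:4104698-4104947, reverse strand: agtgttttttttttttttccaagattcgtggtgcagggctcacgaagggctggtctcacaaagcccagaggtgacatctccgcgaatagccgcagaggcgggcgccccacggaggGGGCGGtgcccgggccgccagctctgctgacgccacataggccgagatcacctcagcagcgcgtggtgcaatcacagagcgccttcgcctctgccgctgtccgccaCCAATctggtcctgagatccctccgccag
Msmo1, chr8:64733579-64733828, reverse strand: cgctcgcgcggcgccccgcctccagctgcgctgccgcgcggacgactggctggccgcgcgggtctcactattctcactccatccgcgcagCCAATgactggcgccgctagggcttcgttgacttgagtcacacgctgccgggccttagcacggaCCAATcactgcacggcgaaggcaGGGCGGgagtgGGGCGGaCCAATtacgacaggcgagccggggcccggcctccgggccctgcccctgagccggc
Insig1, chr5:28071162-28071411, forward strand: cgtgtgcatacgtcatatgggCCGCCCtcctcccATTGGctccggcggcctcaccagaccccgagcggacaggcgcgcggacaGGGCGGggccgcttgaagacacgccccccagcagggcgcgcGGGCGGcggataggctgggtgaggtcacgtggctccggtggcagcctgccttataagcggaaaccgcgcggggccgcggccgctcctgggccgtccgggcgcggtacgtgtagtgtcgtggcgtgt

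All 5 stretches held CCAAT and GGGCGG, which stood in 33.8% and 32.7% of 32851 promoter stretches of that length. TCACNCCAC was found only in Hmgcs1, 137 to 129 bases before its start, and stood in 1.05% of the promoter stretches. No matches overlapped one another. A match describes letters in this window and was not tested as a binding site. On the same build, Sqle lies at chr15:59315092-59331193 and Fdft1 at chr14:63145150-63181687.

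Taken as a sum, the members were highest in olfactory ensheathing cells (OECs), the glia that wrap the axons of olfactory sensory neurons, and lowest in red blood cells and microglia. Levels here are CPM, the usual depth-scaled count, in which a gene's UMIs are scaled to the total UMIs of a cluster in 1 library. Summed over the 7 members and averaged over clusters of a kind, the level was 1068 CPM ± 176 (SD, n = 6 libraries) in 5 OEC clusters, 657 ± 110 in 3 astrocyte clusters and 601 ± 62.6 in oligodendrocytes and their precursors. Every cluster of a kind counted equally, also the shallow OEC3 (a median of 817 UMIs) and Astro3 (708.5) and the small Astro2 (336 cells). Neurons held 379.8 ± 38.2 over 16 clusters, endothelial cells 332 ± 61.6, and 5 immune clusters 151 ± 10.9. Red blood cells, which lack the organelles of sterol synthesis, held 77.5 ± 55.4, and the part of free RNA in that level was not tested.

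**Figure D1:**
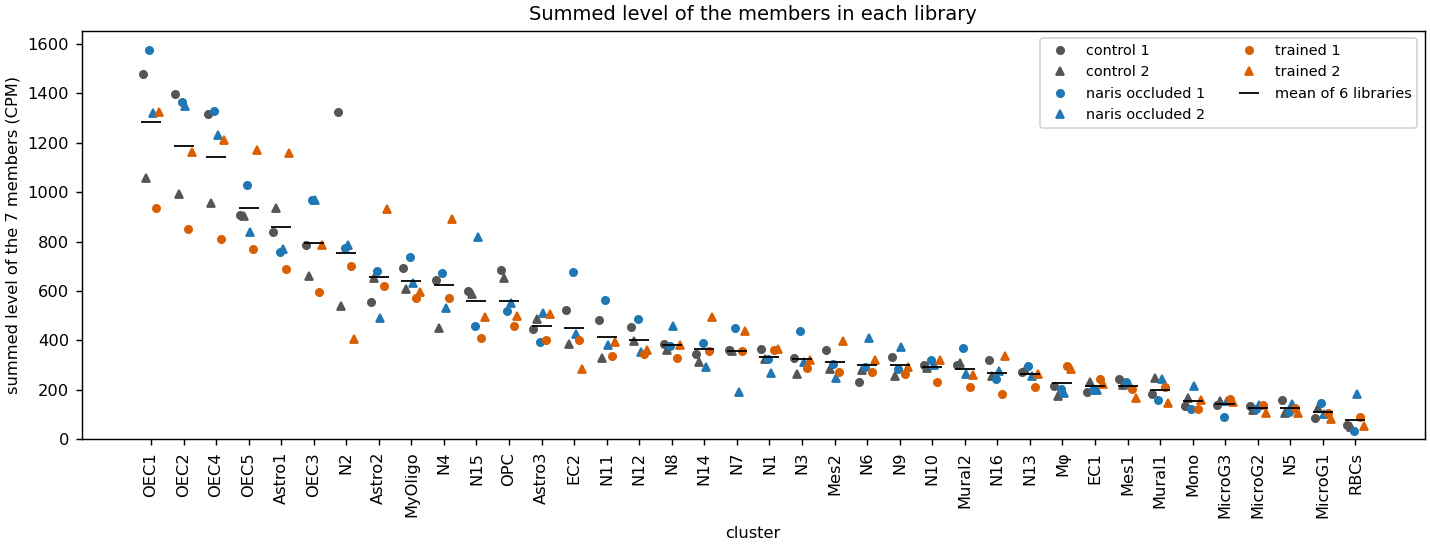
Summed level of the 7 members (CPM, vertical axis from 0) in each of 38 clusters, ordered by the mean. Points are libraries, colored by condition, with circles for replicate 1 and triangles for replicate 2, and bars are means of 6 libraries. OEC1, OEC2 and OEC4 stand at the left, with means of 1282, 1186 and 1143 CPM, and RBCs at the right with 77.5 CPM.

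The OEC label was checked on Npy and Sox10, the 2 markers set for these cells. Npy stood at 3870 to 20739 CPM over the 5 OEC clusters and at 232 to 6362 CPM elsewhere, and Sox10 at 174 to 298 CPM. Sox10 did not separate OECs from the oligodendrocyte lineage, where it was at 412 CPM in OPC and 270.4 CPM in MyOligo. OEC1, the cluster with the highest summed level, also held the endothelial gene Cldn5 at 3630 CPM, but not Slco1c1, which was at 4 CPM. The 2 defining endothelial genes were thus split, and the part of endothelial RNA in OEC1 was not tested. OEC2, OEC3, OEC4 and OEC5 gave Cldn5 at 1215, 435, 141 and 1066 CPM. The summed level in OEC4 was 1143 CPM, and that in OEC3 was the lowest of the OEC clusters.

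In OEC1 the summed level was 1479 and 1059 CPM in the control libraries, 1574 and 1320.5 in the occluded and 937 and 1325 in the trained. Trained library 1 was the lowest of 6 there, as it was in all 5 OEC clusters. The highest of 38 clusters was an OEC cluster in 6 of 6 libraries. OEC3, whose shallow cells held 817 UMIs at the median, 18.6% of them mitochondrial, had the lowest OEC mean, 795 ± 154 CPM.

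Neighbours in this order mostly did not differ beyond their spread. Of 37 pairs of neighbouring clusters in the summed level, 2 were apart by more than the larger of their SDs, OPC above Astro3 and Mural1 above Mono, and 35 were not. For single members the count was 0 or 1 of 37. The means of OEC1, OEC2 and OEC4 were within their SDs of one another. The lowest library of OEC1, at 937 CPM, stood above every library of the immune clusters.

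**Figure D2:**
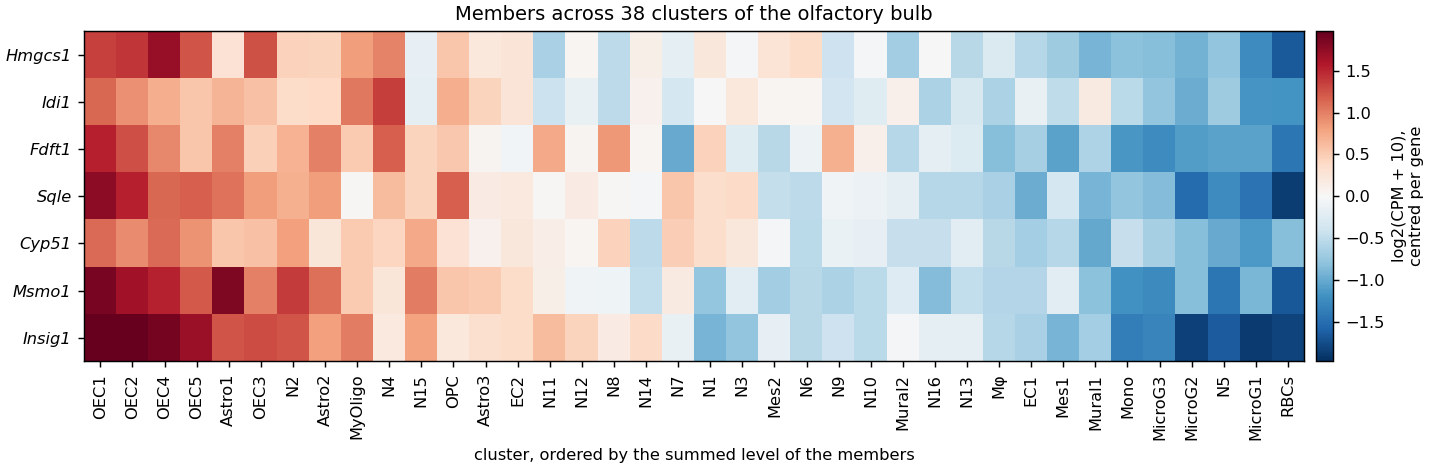
Mean level of each member (rows) in 38 clusters (columns), as log2(CPM + 10) centred per gene, red above and blue below the gene's mean. All 7 members are red in OEC1, OEC2 and OEC4 and blue in MicroG1 and RBCs, and Idi1 and Fdft1 are also red in N4.

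Hmgcs1 encodes the cytosolic synthase that makes HMG-CoA, the entry to the mevalonate branch. In OEC4 its level was 309 and 220 CPM in control, 304 and 292 in occluded and 210 and 323.5 in trained libraries. OEC4 was its highest cluster in 6 of 6 libraries, at 276 ± 48.8 CPM (SD, n = 6), followed by OEC2 at 222 ± 56.2 and OEC1 at 212 ± 34.2. The lowest were MicroG1 at 26.7 ± 5.14 and RBCs at 17.6 ± 19.0.

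Idi1, which isomerizes the isoprenoid unit, departed most from this order. Its highest mean was in N4, 141 cells carrying the immature neuron markers Sox11 (900 CPM) and Dcx (939 CPM), at 48.0 and 112.5 CPM in control, 149 and 68.1 in occluded and 38.1 and 98.9 in trained libraries. The libraries overlapped those of OEC1, and the N4 value, 85.8 ± 42.2 CPM, rested on 33 UMIs. OEC1 followed with 71.3 ± 18.3 and MyOligo, the myelinating oligodendrocytes, with 66.9 ± 12.4. An OEC cluster was the highest for Idi1 in 1 of 6 libraries.

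Fdft1, the squalene synthase, was highest in OEC1 at 117 ± 25.1 CPM, then in OEC2 at 96.3 ± 20.1 and N4 at 89.1 ± 34.2. An OEC cluster was its highest in 3 of 6 libraries, and N2, N15 and N4 in the others. Its values in OEC1 were 117 and 112 CPM in control, 153 and 115 in occluded and 76.3 and 129 in trained libraries. Sqle, the squalene epoxidase and a known control point of the pathway, reached 137 ± 31.5 CPM in OEC1. There it stood at 172.5 and 116 CPM in control, 173 and 143 in occluded and 97.3 and 118 in trained libraries. In RBCs it was at 1.76 ± 2.96 CPM, from 3 UMIs.

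Among the later enzymes, Cyp51, which removes a methyl group from lanosterol, had its highest means in OEC1 (73.8 ± 14.9 CPM) and OEC4 (73.6 ± 16.3). An OEC cluster was the highest for Cyp51 in 3 of 6 libraries, and N2 in the other 3. Msmo1, which acts on the methyl groups that remain, had a mean of 285 ± 61.8 CPM in Astro1 and 292.5 ± 54.2 in OEC1, its highest cluster. In Astro1 it stood at 248 and 320.1 CPM in control, 280.0 and 250.4 in occluded and 222 and 391 in trained libraries. The Astro1 and OEC1 libraries overlapped, and OEC1 was the highest cluster in 3 of 6 libraries, Astro1 in 2 and N2 in 1.

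Insig1, the sterol-sensing regulator and itself a target of SREBP-2, was highest in OEC2 (379 ± 104 CPM), OEC1 (379 ± 81.2) and OEC4 (356 ± 70.0). In OEC2 it was at 416.5 and 289.9 CPM in control, 414 and 535 in occluded and 241 and 378 in trained libraries. Trained library 1 was again the lowest. After thinning each cell to 500 UMIs, 16.6% of OEC2 cells held an Insig1 UMI against 0.457% of the 219 RBCs. Unthinned shares were 44.7% and 3.2%, with median depths of 2246.5 and 3894 UMIs, and no annotated cell was under 500 UMIs. Hba-a1 alone stood at 199183 CPM in RBCs, so less of their depth was left for other genes, thinned or not.

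Against neurons, the members stood higher in macroglia together. The log2 ratio of the summed level in 10 macroglial clusters (OECs, astrocytes and the oligodendrocyte lineage) to that in 16 neuronal clusters was 1.16 ± 0.10 (SD, n = 6), with 1.08 and 1.23 in control, 1.21 and 1.17 in occluded and 1.01 and 1.27 in trained libraries. All 7 members were above 0 in 6 of 6 libraries, from 0.68 for Fdft1 and 0.69 for Cyp51 to 1.38 for Insig1 and 1.40 for Msmo1. The clustering itself used these expression values, so the ratios are a description with no test.

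Not all members stood higher in OECs than in the other glial kinds in every library. The OEC mean was above the astrocyte mean in every library for 4 of 7 members, with ratios of means from 1.19 to 2.25, and above the oligodendrocyte-lineage mean for 6 of 7, from 0.923 to 2.25. The member under 1 was Idi1, at 54.5 ± 7.69 CPM in OECs and 59.0 ± 6.94 in the oligodendrocyte lineage. Against neurons the ratios ran from 1.82 to 3.54, and against the immune clusters from 4.70 to 11.1, with all 7 members above in every library.

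The members also followed one another across the 38 clusters. Pearson's r of log2(CPM + 10), a correlation across clusters that share libraries and differ in depth and is given as a description, ran from 0.763 (Cyp51 with Idi1) to 0.939 (Sqle with Cyp51) over the 21 pairs. Each member correlated at 0.848 to 0.939 with the mean of the other 6, lowest for Idi1 and highest for Sqle.

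Of 8770 other genes that reached 50 CPM in some cluster, the 10 most alike to the members' mean were Fasn (r = 0.918), Sc5d (0.896), Acaca (0.890), Fdps (0.889), Tmem14a (0.881), Rhobtb3 (0.880), Scd2 (0.880), Mvd (0.873), Mboat2 (0.863) and Dhcr7 (0.862), over n = 38 clusters. A list of 38 other cholesterol genes, chosen with earlier results of these data known, held 4 of them. Sc5d, Fdps, Mvd and Dhcr7 are enzymes of the same synthesis route, while Fasn, Acaca and Scd2 make fatty acids and desaturate them. Fasn was highest in OEC1 at 270.2 CPM and Scd2 in MyOligo at 2129.6 CPM, both from counts pooled over libraries.

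The rest of the list fell apart by role. Of 16 other synthesis genes, 11 reached 50 CPM, 8 of these had r above 0.7, and 8 of the 16 were highest in an OEC cluster. Nsdhl, which acts beside Msmo1, had r = 0.849, but Lbr, a sterol reductase that also anchors the nuclear lamina, had r = 0.067 and was highest in endothelial EC1, and Ebp had r = 0.209 and was highest in MicroG2.

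Of 6 sterol-sensing genes, the SREBP genes Srebf1 and Srebf2 had r = 0.808 and 0.764, with Srebf1 highest in OEC1 at 217 ± 20.9 CPM and Srebf2 in Astro1 at 90.7 ± 10.7 CPM. Insig2, the relative of Insig1, had r = 0.114. Of 8 uptake and intracellular transport genes, 6 had a value and 1 was above 0.7, Npc1 at 0.763, which moves cholesterol out of lysosomes and was highest in MyOligo at 219 ± 24.5 CPM. Mylip, which marks lipoprotein receptors for breakdown, had the lowest r of the list, -0.549, and was highest in MicroG2 at 134 ± 15.8 CPM. None of 7 export and storage genes with a value was above 0.7, and their range was -0.266 to 0.429.

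Among whole-bulb neuron clusters N2, with 68 cells, had the highest mean, 755 ± 315 CPM (SD, n = 6). Its markers were mixed, with Npy at 6362 and Sox10 at 183 CPM beside Sox11 at 1226 and Dcx at 549 CPM, and the part of OEC RNA in its level was not tested.

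In the neuron annotation, external plexiform layer interneurons (n18-EPL-IN, 161 cells) had the highest summed level of 18 clusters, 844 ± 137 CPM (SD, n = 6). It was 987 and 761 CPM in control, 811 and 878 in occluded and 637 and 991 in trained libraries. The lowest of these, 637, stood above the highest library of the next cluster, mitral and tufted cells n17-M/TC-3, 555 CPM, where the mean was 488.5 ± 74.6. Insig1 was at 243 ± 49.5 CPM in n18-EPL-IN and Msmo1 at 185 ± 50.3, each above the next cluster by more than the larger SD. Cyp51, Fdft1 and Sqle were also highest there. Hmgcs1 ranked 3 of 18, at 98.4 ± 95.1 CPM, and Idi1 ranked 11, at 15.8 ± 25.7 CPM from 3 UMIs. The values rested on 142 UMIs of the members in all, from shallow cells with a median of 813 UMIs. Npy in n18-EPL-IN was at 3429 ± 4858 CPM, and its part in the result was not tested.

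Olfactory sensory neurons (n01-OSNs) had the lowest summed level, 139.6 ± 34.4 CPM, with a median of 39.0% mitochondrial UMIs per cell, next to n12-GC-6 granule cells at 197.5 ± 42.8. For the summed level 3 of 17 pairs of neighbours were apart by more than the larger SD, and 14 were not. The remaining 14 clusters ran from 245 to 386 CPM, and n04-Immature, the immature neurons, stood at 350.7 ± 41.9 CPM.

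Immature neurons held the members in other proportions than the other 11 adult-born clusters taken as a pool. n04-Immature was marked by Sox11 at 2085 CPM and Dcx at 907 CPM. The log2 ratio of its summed level to that of the other 11 adult-born clusters, pooled, was 0.19 ± 0.21 (SD, n = 6), within its spread, and was -0.11 in occluded library 2. Behind it lay opposite differences: Hmgcs1 (0.60 ± 0.37), Idi1 (0.70 ± 0.32), Fdft1 (0.28 ± 0.12) and Cyp51 (0.47 ± 0.30) were above 0 in 6 of 6 libraries and Sqle (0.66 ± 0.39) in 5 of 6. Msmo1 (-0.25 ± 0.09) and Insig1 (-0.72 ± 0.21) were below 0 in 6 of 6. These ratios are to the pool, and single clusters departed from it. Fdft1 was at 50.7 CPM in n04-Immature but 70.3 in n07-GC-2, and Cyp51 at 38.7 but 43.5. Msmo1 was at 43.4 CPM in n04-Immature, near n02-PGC-1 at 44.4 and above n12-GC-6 at 26.9. Insig1 was lower in n12-GC-6, at 40.8 CPM, than in n04-Immature.

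Insig1 in n04-Immature was at 48.8 and 47.4 CPM in control, 47.0 and 42.2 in occluded and 43.5 and 51.6 in trained libraries. It ranked 16 of 18 neuron clusters, at 46.8 ± 3.45 CPM (SD, n = 6), while n07-GC-2, a granule cell cluster, held 100.2 ± 27.8 and did not overlap it in any library. Hmgcs1 in n04-Immature was at 103 and 80.7 CPM in control, 84.7 and 72.1 in occluded and 122 and 103 in trained libraries. Hmgcs1 ranked 4 of 18, at 94.3 ± 18.3 CPM. These clusters were cut from the same cells and values, and no test was made.

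**Figure D3:**
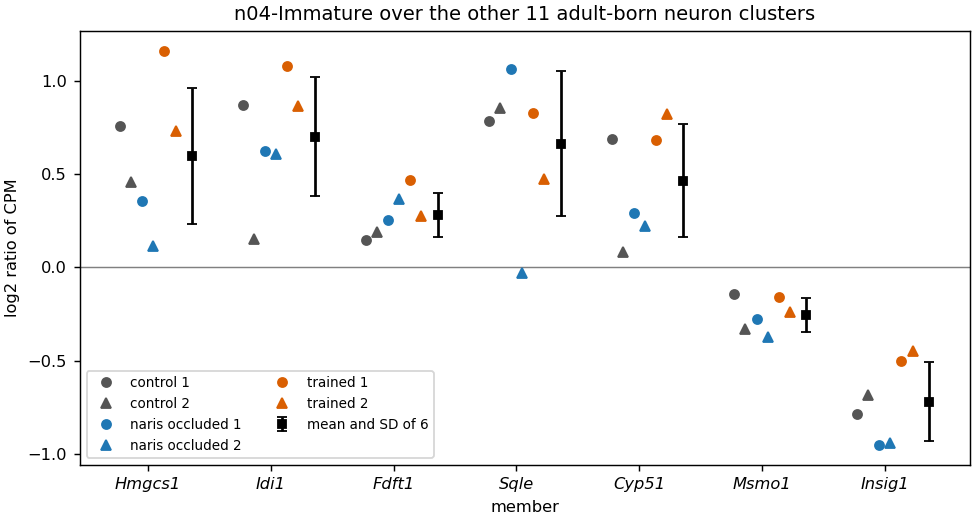
Log2 ratio of each member's CPM in n04-Immature to that in the other 11 adult-born neuron clusters (vertical axis), for 6 libraries, with black squares and bars for the mean and SD. Msmo1 and Insig1 lie below 0 in every library, at means of -0.25 and -0.72, and the other 5 members have means above 0.

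Whether odor deprivation or training changed the members was tested in 10 clusters, 7 of the whole-bulb annotation and 3 of the neuron annotation. OEC3 was the only OEC cluster among them. OEC1, OEC2, OEC4 and OEC5, with higher summed levels and deeper cells, were not tested. Counts were summed per library and cluster, and edgeR's quasi-likelihood test was run over all genes passing its filter on low counts, with Benjamini-Hochberg adjustment at 0.05. Low counts removed 3 members in Astro2 and 5 in MicroG1, which left 62 tests of a member in each comparison. No member was called in these clusters in any of the 3 comparisons.

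Between naris occluded and control, 0 of 62 member tests were called, 6 had an unadjusted p under 0.05 (3 higher and 3 lower), and DESeq2 called 0 with 1 under that p. Over all genes, 3.81% to 5.52% of a cluster's tests had an unadjusted p under 0.05. Of all genes tested, the share called was 0.0104% in Astro1, 0.0442% in Astro2, 0.0308% in OEC3, 0.0759% in MyOligo, 0.0868% in OPC, 0.0231% in EC1, 0.0199% in MicroG1, 0.0715% in n03-GC-1, 0.107% in n04-Immature and 0.0122% in n07-GC-2. The 0 calls among 62 tests are to be read against these shares. Member log2 fold changes ran from -1.15 to 1.18.

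The largest was Cyp51 in myelinating oligodendrocytes, at 23.9 and 33.5 normalized CPM in control and 81.6 and 47.3 in occluded libraries, with 14, 15, 46 and 28 UMIs. The log2 fold change was 1.18 ± 0.34 (SE), with an edgeR adjusted p of 0.9998. The trained libraries stood at 61.8 and 33.8 CPM. Without occluded library 2, Cyp51 was called, at 1.52 ± 0.35 with an edgeR adjusted p of 0.0116, and without occluded library 1 the value was 0.74. Such a fit leaves 1 occluded library, which is assumed to vary like the libraries of the other groups.

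Between trained and control, 0 of 62 member tests were called by edgeR, 6 had an unadjusted p under 0.05 (2 higher and 4 lower), and DESeq2 called 0 with 0 under that p. Over all genes that share was 4.9% to 8.96% by cluster. All genes gave 0.166% called in Astro1, 0.133% in Astro2, 0.123% in OEC3, 0.121% in MyOligo, 0% in OPC, 0.335% in EC1, 0% in MicroG1, 0.0143% in n03-GC-1, 0% in n04-Immature and 0.0608% in n07-GC-2. Member log2 fold changes ran from -1.03 to 0.90. The largest was Idi1 in n03-GC-1, a granule cell cluster, with 7 and 10 UMIs in control and 2 and 4 in trained libraries (13.9, 33.6, 5.43 and 18.9 CPM). The libraries overlapped, and the log2 fold change of -1.03 ± 0.76 (SE) had an edgeR adjusted p of 0.980. It was -0.18 without trained library 1, -1.94 without trained library 2, -1.65 without control library 1 and -0.42 without control library 2, and -0.67 in cells with at least 1000 UMIs.

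Between trained and naris occluded, 0 of 62 member tests were called by edgeR, 9 had an unadjusted p under 0.05 (3 higher and 6 lower), and DESeq2 called 0 with 3 under that p. Over all genes the share under that p was 5.07% to 10.2% by cluster. Over all genes 0.197% were called in Astro1, 0.133% in Astro2, 0.277% in OEC3, 0.167% in MyOligo, 0.0434% in OPC, 0.404% in EC1, 0% in MicroG1, 0.186% in n03-GC-1, 0.0107% in n04-Immature and 0.231% in n07-GC-2. The largest value was again Idi1 in n03-GC-1, -1.17 ± 0.70 (SE, edgeR adjusted p = 0.753), with 21 and 10 UMIs in occluded libraries. It was -0.32 without trained library 1, -2.08 without trained library 2 and -0.42 without occluded library 1. This comparison shares its occluded and trained libraries with the other two.

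**Figure D4:**
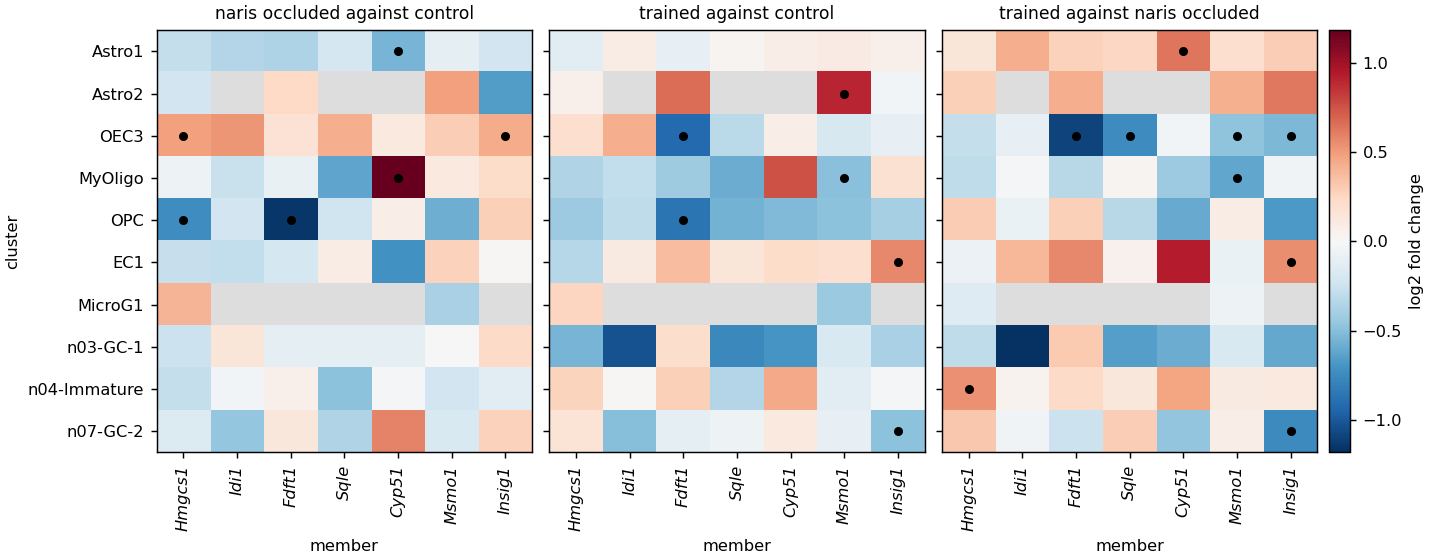
Log2 fold change of each member (columns) in 10 clusters (rows) for the 3 comparisons, red where the group named first was higher. Dots mark an unadjusted p under 0.05, in 6, 6 and 9 of 62 tests, grey marks members that did not pass the filter on low counts, and no value passed the adjusted threshold of 0.05.

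In OEC3 and Astro1 all 7 members had the same sign in 2 of the 3 comparisons, with no call. The 7 were measured in the same libraries and follow one another across clusters, so here and below their signs are not separate observations. In OEC3 all 7 members were higher in occluded than in control libraries, as were 49.5% of all 6498 genes tested. The members' median log2 fold change was 0.42 against -0.005 over all genes, and 2 of 7 had an unadjusted p under 0.05, as did 5.08% of all genes. All 7 were lower in trained than in occluded libraries, where 51.0% of all genes were higher. The median was -0.48 against 0.01 over all genes, and 4 of 7 were under that p, as were 10.2% of all genes. Between trained and control, 3 of 7 were higher, with a median of -0.09. Fdft1 there was at 58.0 and 63.1 normalized CPM in control, 81.7 and 54.4 in occluded and 38.03 and 22.9 in trained libraries. The trained libraries lay below the other 4, with 23 and 9 UMIs, and the log2 fold change of trained against occluded was -1.09 ± 0.32 (SE), with an edgeR adjusted p of 0.137, the lowest of any member. Fdft1 was singled out after its values were seen.

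Insig1 in OEC3, named because its call changed, was at 279 and 161 normalized CPM in control, 253 and 348 in occluded and 172 and 249 in trained libraries. The log2 fold change of trained against occluded was -0.54 ± 0.21 (SE, edgeR adjusted p = 0.329). Without occluded library 1 it was -0.74 and was called (edgeR adjusted p = 0.0298, again with 1 occluded library and the spread of the other groups), while it was -0.29 without occluded library 2 and -0.26 without trained library 1. Among OEC3 cells with at least 1000 UMIs it was -0.28. OEC3 was a shallow cluster, and trained library 1, the shallowest, was lowest for the summed level in all 5 OEC clusters. The part of depth in these values was not tested.

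**Figure D5:**
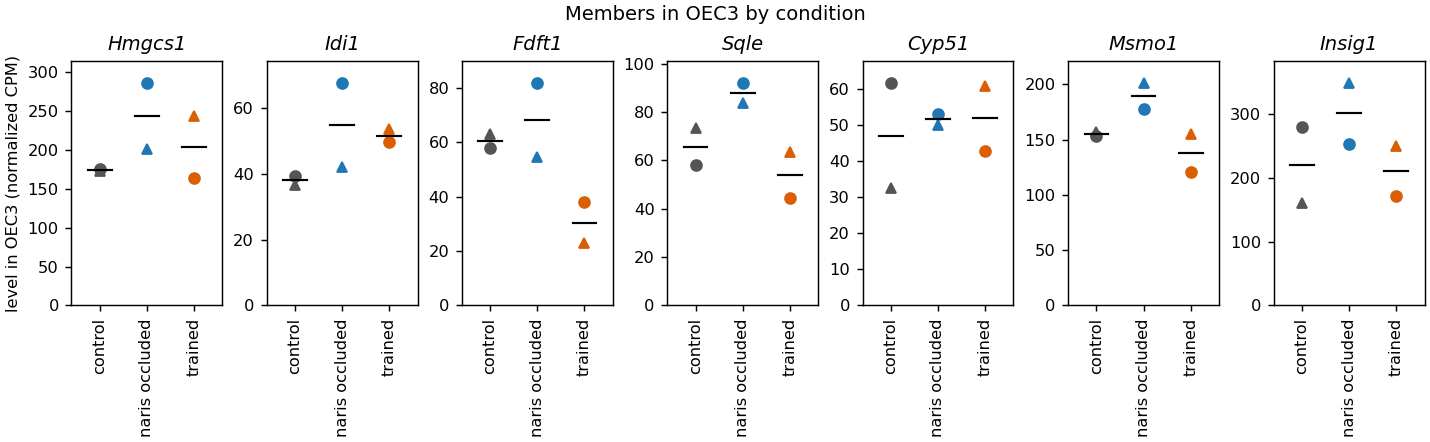
Normalized CPM (vertical axes from 0, one scale per gene) of the 7 members in OEC3 by condition, with circles for replicate 1, triangles for replicate 2 and bars for the mean of 2 libraries. Fdft1 lies at 22.9 and 38.03 CPM in the trained libraries, below the other 4, and the means of all 7 members are higher in occluded than in control libraries.

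In Astro1 the signs were opposite to those in OEC3, and the difference between the clusters was not tested. All 7 were lower in occluded than in control libraries, with a median log2 fold change of -0.28 against 0.0005 over all 9623 genes tested. All 7 were higher in trained than in occluded libraries, with a median of 0.27 against 0.0003 over all genes. Of all genes, 50.1% were higher in the first of these comparisons and 50.1% in the second. In each of the 2 comparisons 1 of 7 had an unadjusted p under 0.05, Cyp51 in both, as had 4.78% and 7.58% of all genes. Between trained and control, 5 of 7 were higher, with a median of 0.06. Both comparisons use the same 2 occluded libraries, as they do in OEC3. A single sign was also shared in OPC between trained and control, where all 7 were lower with a median of -0.48 against 0.002 over all genes, and 1 of 7 had an unadjusted p under 0.05, as did 4.9% of all genes. Between trained and occluded, all 7 were higher in n04-Immature, with a median of 0.13 against 0.002 over all genes and 1 of 7 under that p against 6.65%. In Astro2, 4 of 4 tested were higher, with a median of 0.42 against -0.01 and 0 of 4 under that p against 7.21%. In MicroG1, 2 of 2 tested were lower, with a median of -0.10 against -0.005 and 0 of 2 under that p against 5.07%. Over all 10 clusters and 3 comparisons the medians of the members ran from -0.59 (trained against occluded in n03-GC-1) to 0.42 (occluded against control in OEC3).

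The 38 other cholesterol genes were read in the same way. In 228 tests per comparison over the 10 clusters, edgeR called 0, 0 and 0, with an unadjusted p under 0.05 in 11 (occluded against control), 15 (trained against control) and 20 (trained against occluded), and DESeq2 called 0 with 4, 4 and 3 under that p. Over all genes the shares under that p by cluster were 3.81% to 5.52%, 4.9% to 8.96% and 5.07% to 10.2% in the same order, and the shares called were the low ones given above. Nothing is read from these counts about the list. Of the 228, 111, 109 and 118 were higher in the group named first, and log2 fold changes ran from -1.49 to 1.24.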

How the data were processed

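Single cells of the olfactory bulb were measured in 6 libraries, grouped by their labels into control, naris occluded and trained. The submitters' processing notes name Cell Ranger 2.0.0 and Seurat 2.2.1 and the build mm10. The deposited values are raw UMI counts per gene and cell, made by the authors, with 2 deposited cluster annotations. Cluster names were used as deposited, and their numbering differs from that of the published list. Of 52549 barcodes, 1123 had no cluster and were left out. The library of a cell was read from the annotation's library column, because 17275 cells of the trained libraries have names starting with the other trained library. Per the methods, the authors removed doublets from their data, so no doublet caller was run. A deposited processed table of normalized values was not used.

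Counts were summed per library and cluster and given as CPM. Conditions were compared in each cluster with edgeR 4.0.16 (quasi-likelihood test, TMM scaling, filterByExpr by group, all 6 libraries in 1 fit, R 4.3.3), with Benjamini-Hochberg adjustment over all genes of a cluster and a threshold of 0.05. DESeq2 1.42.0, a replicate block, other scaling, no filter, cells with at least 1000 UMIs, no mitochondrial genes and leaving out each library were tried as alternatives. The scripts were tested on simulated data. Other tables and figures used Python 3.11.15.

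All 7 members were named, with the largest fold change of each comparison, the 10 genes most alike and the pathway list. The members and lists were chosen by gene name, with earlier results of these data known. The precision of a level is limited by UMIs per cluster and library, and shares cover counting error only. The values of 1 gene of the pathway list are not reported here.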

Additional observations from a re-analysis of the deposited data

How the results depend on the processing

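Members called numbered 0 in each comparison under the replicate block, DESeq2, RLE size factors, no filter on low counts, cells with at least 1000 UMIs and without mitochondrial genes. With libraries left out, which leaves a group with 1 library assumed to vary like the others, the calls ranged from 0 to 1 between naris occluded and control (1 without occluded library 2, Cyp51 in MyOligo, log2 fold change 1.52), were 0 between trained and control, and ranged from 0 to 1 between trained and naris occluded (1 without occluded library 1, Insig1 in OEC3, -0.74). Same-numbered libraries share a number and the sex of the mice, and their deviations correlated at 0.028 to 0.193 in 30 sets, 13 of them over 0.1. The replicate block was kept as an alternative only, so any difference by sex stays in the spread of the main fit. Members made up 62 tests per comparison in the main fit, 70 with no filter and 59 in cells with at least 1000 UMIs. All genes and clusters gave 67794 tests per comparison in the main, replicate-block and DESeq2 fits. There were 154199 with no filter, 61281 in cells with at least 1000 UMIs and 72644 to 76073 with a library left out. Calls over all genes were 32, 70 and 121 in the order above, 61, 117 and 237 with the replicate block, and 7, 20 and 29 with DESeq2. They were 98, 209 and 334 with no filter, and 30, 32 and 72 in cells with at least 1000 UMIs. With libraries left out they ran from 36 to 113, 37 to 350 and 141 to 562. The log2 ratio of macroglia to neurons was 1.03 as a mean of log2(CPM + 10) over the members and 1.11 to 1.202 in the other alternatives. The ratio of n04-Immature to the other adult-born clusters ran from 0.12 to 0.25. Of the 10 genes most alike, 2 were on the pathway list by Spearman correlation and 3 or 4 otherwise. Few UMIs per member and cluster limit what 2 libraries a group can show.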
